A study of Mus musculus with 17 samples.

Results

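Classical cadherins and non-clustered protocadherins were followed through nuclear RNA of the mouse cortex after chronic unpredictable stress (CUS). Members were the protein-coding genes whose symbol is Cdh or Pcdh followed by a number, which gave 35 of the 36293 genes listed for bulk nuclear RNA, 23 of the Cdh and 12 of the Pcdh kind. The same 35 symbols were found among the 37608 genes listed for single nuclei. The clustered protocadherins, whose symbols carry a letter in place of the number, were not members. The rule reads symbols and no measured value, and it was set with earlier results of these data known.

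Cadherins are membrane proteins whose extracellular repeats bind calcium and, in most members, the same cadherin on the neighbouring cell. The cytoplasmic tails of type I (Cdh1, Cdh2, Cdh3, Cdh4, Cdh15) and type II cadherins bind p120 and beta-catenin and through alpha-catenin the actin cytoskeleton. Delta-1 protocadherins (Pcdh1, Pcdh7, Pcdh9, Pcdh11x) carry a motif for protein phosphatase 1, and several delta-2 protocadherins (Pcdh8, Pcdh10, Pcdh17, Pcdh18, Pcdh19) recruit the WAVE actin regulator. In the cortex these proteins take part in the sorting of neurons, the matching of axons to targets and the adhesion of synapses.

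All mice were C57BL/6 males by the labels, C57Bl/6J by the study's methods. CUS mice had 3 changing stressors a day over 12 days from an age of 9 to 10 weeks, while controls lived in another room and were gently handled every day. Bulk nuclear RNA came from the mPFC of 4 control and 5 CUS mice at postnatal day 90, and sNucDrop-seq, which tags RNA of single nuclei in droplets with unique molecular identifiers (UMIs), from the neocortex of 4 control and 4 CUS mice at postnatal day 80. Neocortex was taken 24 h after the last stressor, and the mice of the bulk series 24 h after their last behavioural test, so these had also been through a test battery. Bulk libraries held 26188825 to 30525015 reads on genes. The nuclei of a mouse held 4574763 to 12722347 UMIs over 1862 to 4260 nuclei, 26226 nuclei in all, and any pair of mice shared 0 to 2 barcodes. Levels below are in CPM, the counts of a gene scaled to a common library size, as mean ± SD over mice. Nuclei were clustered without any Cdh or Pcdh gene and named from marker genes as "like" a cell type, or left with a number and a leading gene. Of the 26226 nuclei, 1828 were Striatal-like although the tissue is labelled cortex. They made up 10.2%, 7.6%, 8.73% and 9.51% of the nuclei of the control mice and 5.26%, 9.03%, 4.51% and 2.67% of those of the CUS mice, so that only CUS replicate 2 lay in the control range. CUS replicate 1 contributed 34 of the 66 Endothelial-like nuclei.

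The members had long genes. Their median span, from the first to the last base of a gene, was 123.3 kb, against 23.45 kb for the 18394 genes tested in bulk, and 19 of the 35 members spanned at least 100 kb, against 14.8% of the genes tested. The longest was Pcdh15 at 1550 kb and the shortest Pcdh8 at 4.538 kb. Of the members, 8 lie on chromosome 8, 5 on chromosome 15 (the type II genes Cdh6, Cdh9, Cdh10, Cdh12 and Cdh18) and 5 on chromosome 14. The members took 0.876% to 0.965% of the reads of a bulk library.

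CPM can rise with gene length, through exons and, where intronic reads are counted, through introns, so the members were ranked by level only per kb. In the 4 control mPFC libraries the order per kb of span was led by Pcdh1 (3.92 ± 0.39 CPM per kb), Cdh11, the osteoblast cadherin that is also abundant in brain (3.42 ± 0.42), and Pcdh9 (3.36 ± 0.065), followed by Pcdh10 at 2.55 ± 0.36 and Cdh2, the neural cadherin of adherens and synaptic junctions, at 2.05 ± 0.070. Cdh11 overlapped both Pcdh1 and Pcdh9 over the 4 mice, so its place between them is not resolved. Per kb of exon the order changed, with Pcdh9 first at 434 CPM per kb, Cdh12 next at 151 and Cdh18 next at 116, and Pcdh1 only 14th of the 35 at 11.6. The last 8 places per kb of span, at 0.042 CPM per kb or less, held Pcdh12 (endothelium), Cdh1 (epithelia), Cdh15 (muscle), Cdh16 (kidney), Cdh26 (epithelia), Cdh23 (inner ear), Cdh3 (placenta) and Cdh17 (liver and intestine).

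Across classes of nuclei the members formed distinct patterns. Of the 35, 27 reached 10 CPM in at least 1 of the 15 named classes with over 200 nuclei, and 16 of these were highest in a neuron-like class and 11 in a glia-like class. The count in a neuron-like class moved with the processing. It was 23 with at least 1000 genes per nucleus, 20 with no doublet filter and 19 over the CUS mice. Without control replicate 2 it was 15, and these counts are not necessarily out of 27 members. With at least 1000 genes, oligodendrocyte nuclei fell into a mixed cluster and OPC-like nuclei numbered 125, so Astrocyte-like was the only glia-like class left. With no doublet filter a mixed cluster took most oligodendrocyte nuclei, and the 57 Oligo-like nuclei were too few. The counts of 23 and 20 thus cannot be read as a shift of members to neurons. The level in the highest class was 1.49 to 108 times the median over the 15 classes. In 8 members the control mice of the highest named class did not overlap those of the next named class (Cdh7, Cdh11, Cdh12, Cdh18, Cdh19, Pcdh8, Pcdh9 and Pcdh15). In the other 19 they did, so the first place is not resolved there. These levels are a description of 4 mice, within a gene, with no test. Highest and lowest classes are given among the 15 named classes. With the numbered clusters included, the maximum of 8 members moved to one of them, for Cdh2 (408 CPM), Cdh4 (133) and Cdh12 (1326) to cluster 23 (Fyb2), for Cdh11 (720) and Pcdh17 (499.8) to cluster 19 (Tshz2), for Cdh8 (726) to cluster 21 (Tshz2), for Pcdh1 (37.4) to cluster 9 (Cpne7) and for Pcdh19 (163) to cluster 24 (Pbx3).

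**Figure D1:**
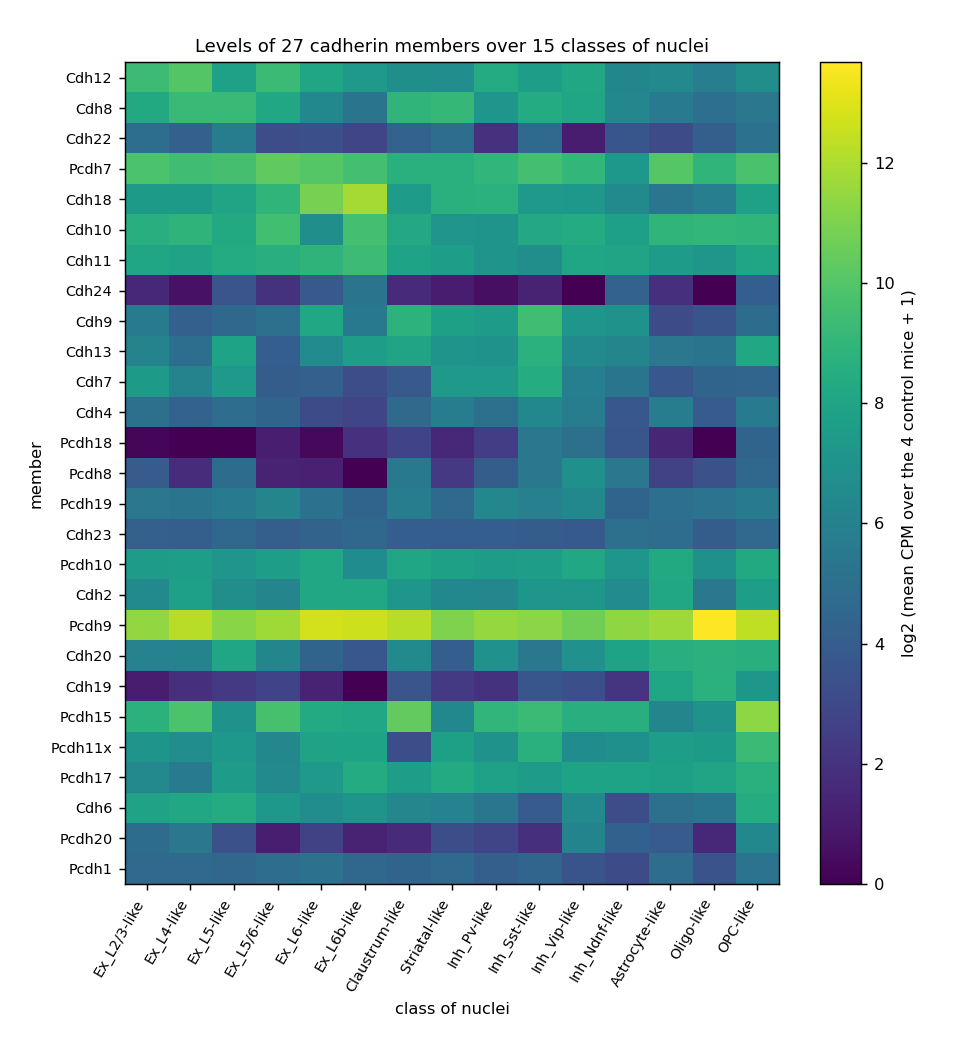
Levels of the 27 members that reached 10 CPM, as log2 of the mean CPM over the 4 control mice plus 1 (colour), in the 15 named classes of nuclei (columns). Rows are ordered by the class in which a member is highest. Pcdh9 is bright in every column with its maximum in Oligo-like nuclei, Cdh18 stands out in Ex_L6-like and Ex_L6b-like nuclei, and Cdh19 is bright in the 3 glia-like columns only.

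Among type II cadherins, Cdh7, Cdh11, Cdh12 and Cdh18 had a highest neuron-like class whose mice did not overlap the next class. Cdh18 was highest in Ex_L6b-like nuclei (3593 ± 508 CPM), followed by Ex_L6-like nuclei (1890 ± 110), and lowest in Astrocyte-like nuclei (39.7 ± 14.0). Cdh12 was highest in Ex_L4-like nuclei (1025 ± 142), above Ex_L2/3-like nuclei (652 ± 118). Both are type II cadherins that are found mainly in brain.
Among interneurons, Inh_Sst-like nuclei held the highest levels of Cdh7 (350 ± 75.3 CPM, against 176 ± 14.0 in Ex_L2/3-like nuclei) and Cdh9 (700 ± 155). Cdh9, which is known for its part in hippocampal mossy fibre synapses, was next in Claustrum-like nuclei (458 ± 109), and the mice of these classes overlapped. Inh_Sst-like nuclei were also the highest class for Cdh13 (426 ± 94.9), the T-cadherin that is anchored by a lipid and lacks a cytoplasmic tail. Cdh8 was shared by Ex_L4-like (622 ± 78.8), Ex_L5-like (616 ± 142) and Striatal-like nuclei (558 ± 48.6). Cdh22, a cadherin of pituitary and brain, had its highest level in Ex_L5-like nuclei (52.7 ± 14.1), where the mice overlapped OPC-like nuclei (34.9 ± 32.6).

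Of the type II cadherins, 3 were highest in glia-like classes. Cdh19 stood at 430 ± 38.5 CPM in Oligo-like, 259 ± 34.7 in Astrocyte-like and 151 ± 38.2 in OPC-like nuclei (oligodendrocyte precursors), with a median of 3.97 over the 15 classes, and had the largest ratio to that median of all members in each of these 3 classes. Cdh20 stood at 441 ± 140 CPM in Oligo-like, 382 ± 104 in OPC-like and 377 ± 97.7 in Astrocyte-like nuclei. Here the 3 glia-like classes did not differ beyond their spread. Cdh6, the kidney cadherin, was highest in OPC-like nuclei (358 ± 176), where the mice overlapped Ex_L5-like nuclei (335 ± 96.9). Among numbered clusters, cluster 21 (Tshz2) reached 325 CPM of Cdh20.

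Among protocadherins, Pcdh9 stood at 13027 ± 1866 CPM in Oligo-like nuclei and at 6801 ± 715 in Ex_L6-like nuclei, and its lowest class was Inh_Vip-like (1684 ± 663). Pcdh15, a protein of the tip links of inner ear hair cells together with Cdh23, was highest in OPC-like nuclei (2602 ± 420), above Claustrum-like nuclei (1329 ± 127). Pcdh11x, an X-linked protocadherin, was highest in OPC-like nuclei as well (649 ± 69.7), where 1 or more mice overlapped Inh_Sst-like nuclei (402 ± 119). Pcdh7 was spread widely, from 156 ± 11.5 CPM in Inh_Ndnf-like to 1310 ± 246 in Ex_L5/6-like nuclei. Pcdh8, also called arcadlin and known as an activity-regulated protein that removes N-cadherin from synapses, was highest in Inh_Vip-like nuclei (115 ± 66.3). Pcdh18 was highest in Inh_Sst-like (41.7 ± 8.76) and Inh_Vip-like nuclei (31.6 ± 12.99), followed by OPC-like (20.5 ± 17.99, from 4 UMIs) and Inh_Ndnf-like nuclei (11.6 ± 5.93), and was at 5.75 CPM or less in the other named classes. Pcdh17 ran from 47.0 ± 6.77 CPM in Ex_L4-like to 404 ± 60.5 in OPC-like nuclei, while Pcdh1 ranged over 8.15 to 35.6 CPM and Pcdh10 over 98.4 to 318.

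In bulk mPFC, stress left most members near their control level, and 1 of the 32 members tested passed an FDR of 0.05, Cdh20, which fell. FDR is the Benjamini-Hochberg-adjusted p over all 18394 genes tested with edgeR's quasi-likelihood test, and 3.29% of these genes passed. Cdh3, Cdh16 and Cdh17 were not tested because of low counts. Of the 32 members, 18 had a log2 fold change below 0 and 14 above, with a median of -0.04. Over all genes tested, 48.7% were below 0, with a median of 0.0060, and of the genes of at least 100 kb, 61.7%. Calls toward lower values made up 2.13% of the genes tested. At an unadjusted p under 0.05 there were 7 members, 2 lower and 5 higher, a share near the 21.5% of all genes. In bulk tissue, fewer cells of a type and less RNA per cell cannot be told apart.

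**Figure D2:**
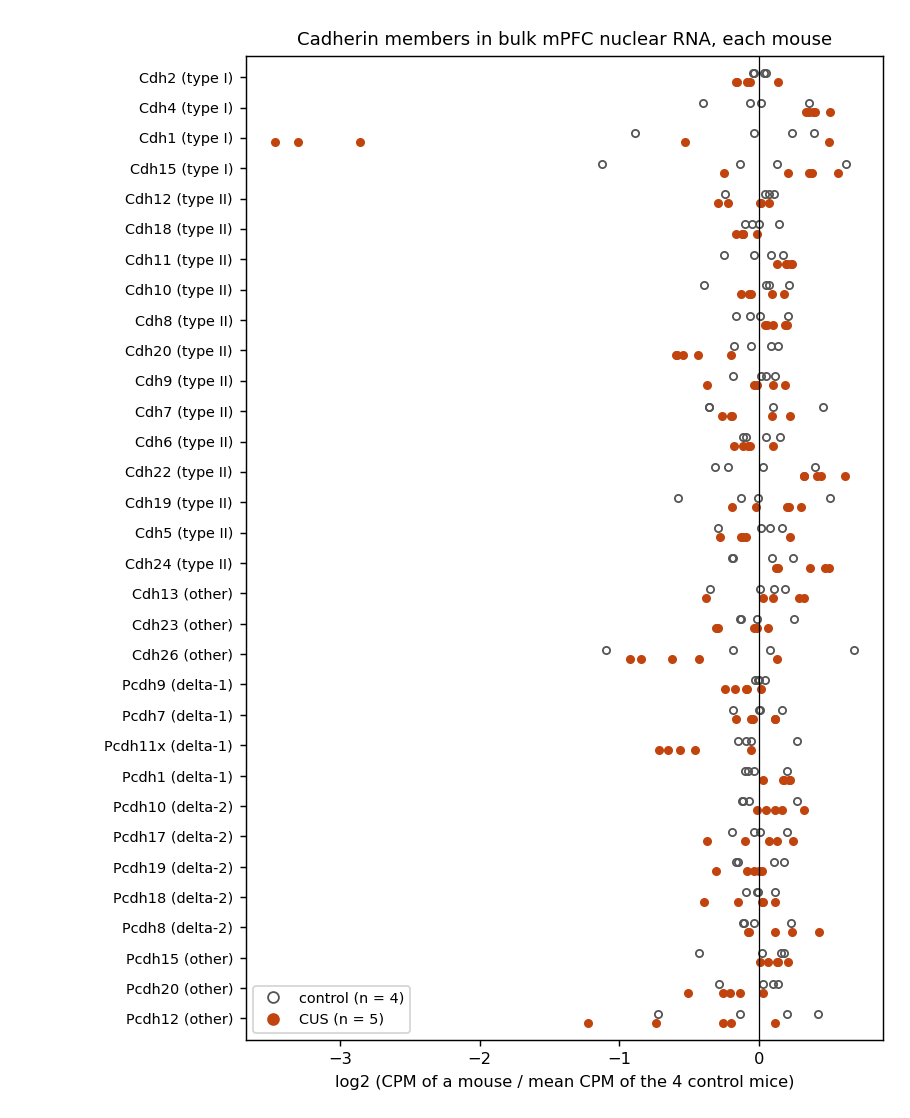
Each of the 32 members tested in bulk mPFC (rows, grouped by subfamily), with log2 of the CPM of a mouse over the mean CPM of the 4 control mice (horizontal axis). Open circles are control mice and filled circles CUS mice. The CUS mice of Cdh20 lie left of all control mice, those of Cdh4 and Cdh22 lie right of 0, and Cdh1 has 3 CUS mice far to the left.

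Cdh20 (ENSMUSG00000050840, mm10 chromosome 1, 104768529 to 104995481, plus strand) measured 143, 138, 115 and 125.8 CPM in the control mice and 89.5, 114, 96.7, 87.2 and 86.6 CPM in the CUS mice. All CUS mice were below all control mice, which held for 4.7% of the genes tested and for no other member. Groups without overlap in either direction made up 8.76% of the genes. The mean fell from 131 ± 12.6 (n = 4) to 94.7 ± 11.3 (n = 5). On the log2 scale this change was -0.47 with a standard error of 0.09, at an FDR of 0.0167 by edgeR's quasi-likelihood test. The call was lost without control replicate 2 (FDR 0.062), CUS replicate 4 (0.059) or CUS replicate 5 (0.053), with log2 fold changes of -0.54 to -0.42 over all alternatives. Cdh20 was highest in the glia-like classes above, and the summed marker lists of these classes moved in different directions in bulk. The 9 astrocyte markers summed to 1653 to 1991 CPM in control and 1542 to 1769 CPM in CUS mice, with 4 of them called lower (exact permutation p = 0.0952), and the 10 oligodendrocyte markers to 279 to 604 and 310 to 374 (exact p = 0.127). The 7 markers of newly formed oligodendrocytes summed to 377 to 432 and 359 to 385 CPM, with 1 called lower (exact p = 0.0476). The sum of the 9 OPC markers was higher, at 1134 to 1380 against 1438 to 1584 CPM, with 1 of them called lower and 1 higher (exact permutation p = 0.00794, two-sided, the smallest that 4 against 5 mice allow). Their part in the result was not tested.

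Next in order of p came Pcdh11x, Cdh4 and Cdh22, all past an unadjusted p under 0.05 and short of the FDR. Pcdh11x (mm10 chromosome X, 120290259 to 120910619, plus strand) measured 126.4, 101, 98.4 and 94.6 CPM in control and 71.1, 101, 76.6, 63.9 and 66.7 CPM in CUS mice. In this gene 4 of 5 CUS mice were below all controls, and CUS replicate 2 lay inside the control range. The log2 fold change was -0.47 (standard error 0.12, FDR 0.0584).
Cdh4, the retinal cadherin, lies on mm10 chromosome 2 (179442431 to 179899373, plus strand) and measured 97.2, 103, 130 and 77.1 CPM in control against 130, 134, 145, 129 and 133 CPM in CUS mice. CUS mice lay within 129 to 145 CPM, and of the controls only replicate 3 reached that range. The log2 fold change was 0.40 (standard error 0.11, FDR 0.0685).
Cdh22 (mm10 chromosome 2, 165111507 to 165234853, minus strand) measured 20.03, 23.8, 30.8 and 18.8 CPM in control and 35.7, 31.7, 31.1, 29.2 and 29.1 CPM in CUS mice. Only control replicate 3 reached the range of the CUS mice. The log2 fold change was 0.43 (standard error 0.12, FDR 0.0731).
With edgeR's likelihood ratio test, DESeq2 or no filter on low counts, these 3 genes and Cdh20 passed the FDR of 0.05, beside 7.23%, 7.68% and 2.59% of all genes in the same order. The summed striatal markers were higher in CUS mice of the bulk series (1361 to 1843 CPM in control, 1886 to 2241 in CUS mice, exact permutation p = 0.00794), and the sum of the 7 Ex_L4 markers lower (487 to 596 against 368 to 493, exact p = 0.0238). The 5 Ex_L6b markers also summed lower (68.2 to 89.9 against 64.8 to 72.6 CPM, exact p = 0.0397). Further lists were summed as well, and these p-values are not adjusted for the number of lists. The part of the lists in the changes of these genes was not tested.

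**Figure D3:**
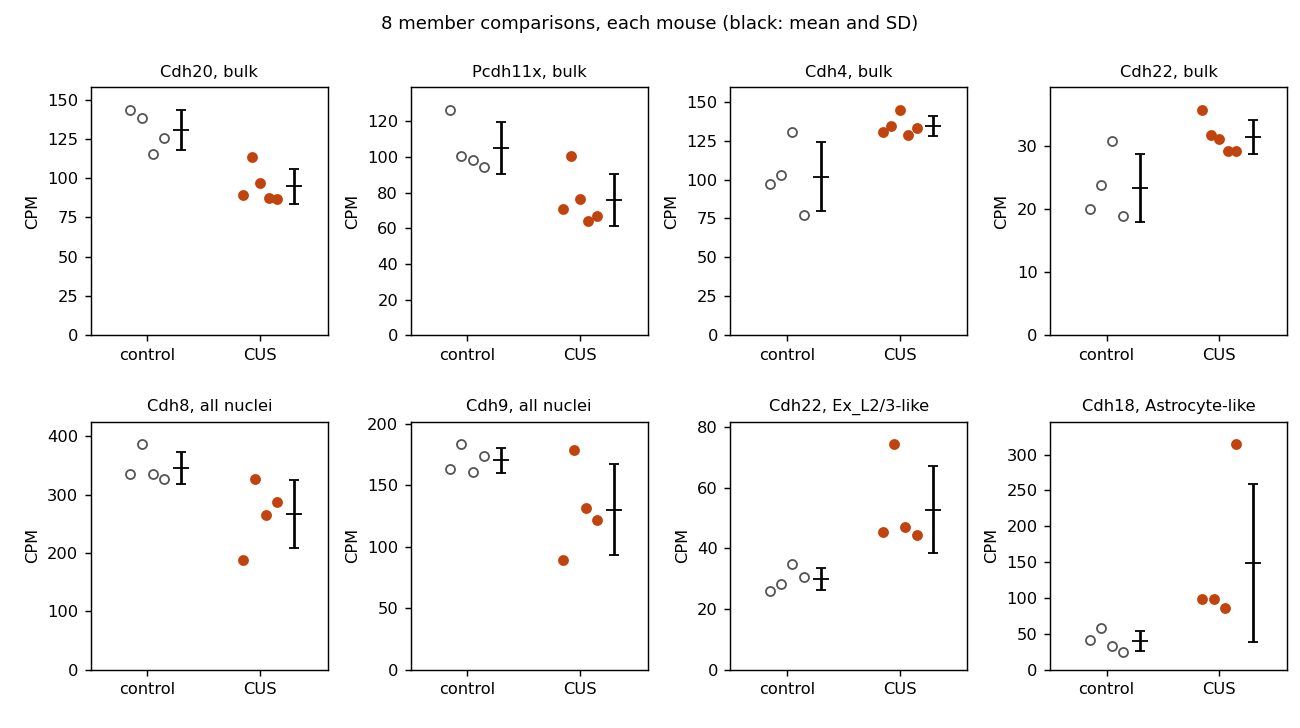
CPM of each mouse (points) with mean and SD (black) for 4 members in bulk mPFC (4 control, 5 CUS), 2 in the summed nuclei and 2 in a class of nuclei (4 control, 4 CUS). The vertical axes start at 0. Cdh20 is the only bulk gene of the 4 without overlap, and in the last panel 1 CUS mouse at 314 CPM stands above the other 3.

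By subfamily, the 4 type I members tested split evenly in sign. Cdh2 measured 451 ± 15.3 CPM in control and 431 ± 37.4 in CUS mice (log2 fold change -0.07). Cdh1, the epithelial cadherin, measured 2.68, 2.22, 1.23 and 2.99 CPM in control and 3.23, 0.315, 1.58, 0.232 and 0.206 CPM in CUS mice. In 3 CUS mice it was thus below all controls and in 1 above them (log2 fold change -1.03, standard error 0.61, FDR 0.349). Without CUS replicate 1, the highest mouse, the log2 fold change was -1.95 (FDR 0.0781). These levels rest on 6 to 91 reads per library.
Of the 13 type II members, 7 were below and 6 above 0. The 3 with the highest CPM, which is no ranking per kb, were Cdh12 (950 ± 99.7 to 899 ± 98.6 CPM), Cdh18 (530 ± 39.8 to 492 ± 18.6) and Cdh11 (525 ± 64.2 to 602 ± 17.8). They had log2 fold changes of -0.08, -0.11 and 0.20, with FDR of 0.662, 0.328 and 0.160. Cdh24 measured 4.15, 4.18, 5.075 and 5.62 CPM in control and 6.11, 5.16, 5.22, 6.59 and 6.71 CPM in CUS mice (log2 fold change 0.32, FDR 0.165). In both Cdh11 and Cdh24 all 5 CUS mice were above the control mean. The other cadherins Cdh13, Cdh23 and Cdh26 had FDR of 0.445 to 0.742. Cdh5, the cadherin of endothelial junctions, measured 17.8 ± 2.32 and 16.985 ± 2.24 CPM.

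Among delta-1 protocadherins, Pcdh9 measured 2944 ± 57.3 CPM in control and 2723 ± 182 in CUS mice, with 4 of 5 CUS mice below the control mean (log2 fold change -0.11, FDR 0.318). Pcdh1 measured 102 ± 10.2 and 115 ± 6.1 CPM, with all 5 CUS mice above the control mean (log2 fold change 0.16, FDR 0.193), and Pcdh7 659 ± 66.2 and 657 ± 54.0. The 5 delta-2 protocadherins had log2 fold changes of -0.08 to 0.14, the narrowest range of the subfamilies, with FDR of 0.434 to 0.975. Pcdh17, a protein of corticostriatal synapses, measured 145 ± 16.5 and 146 ± 23.02 CPM, and Pcdh19, an X-linked epilepsy gene, 58.1 ± 7.08 and 55.0 ± 4.86. Pcdh15 measured 1001 ± 180 and 1079 ± 57.3 CPM (log2 fold change 0.11, FDR 0.595). Pcdh12 and Pcdh20 were below 0 at -0.37 and -0.21, with FDR of 0.505 and 0.325.

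Genes that work with cadherins were read from the same fit. Of 32 such genes tested, 3 fell and 1 rose at an FDR of 0.05, beside 3.29% of all genes. Among 9 catenins and p120 relatives, 1 fell. This was Ctnna3, an alpha-catenin best known from heart, which measured 49.2, 55.7, 63.4 and 65.8 CPM in control and 36.0, 42.8, 46.2, 38.8 and 41.5 CPM in CUS mice. The groups did not overlap (log2 fold change -0.51, FDR 0.0138).
The other calls were large relatives of the cadherin superfamily, 3 of 12. Celsr1, a cadherin of planar cell polarity, fell from 9.18 ± 1.66 to 4.87 ± 0.78 CPM (log2 fold change -0.91, FDR 0.00897), and Dchs1, the ligand of Fat4, from 14.0 ± 1.32 to 11.1 ± 0.51 (-0.33, FDR 0.0384). Clstn2, a postsynaptic calsyntenin, rose from 616 ± 85.3 to 823 ± 57.7 CPM (0.42, FDR 0.0277). None of the 7 members of the WAVE complex and none of the 4 shedding proteases (Adam10 and parts of gamma-secretase) passed by the quasi-likelihood test. Their unadjusted p was under 0.05 for Abi2, Abi1, Nckap1 and Adam10, at log2 fold changes of -0.14, -0.15, -0.13 and -0.22. The same held for the catenins Pkp4 (-0.17) and Ctnna1 (-0.17), and for Dchs2 (-0.53), Fat4 (-0.23), Fat1 (-0.20) and Fat3 (0.21). At that cut stood 21.5% of all genes. The catenins Ctnnb1 and Ctnna2 had log2 fold changes of -0.10 and 0.03. With DESeq2, 9 companion genes passed, beside 7.68% of all genes, and with the likelihood ratio test 5, beside 7.23%. Ctnna3 and Celsr1 passed in all 14 alternatives. Clstn2 and Dchs1 lost the call with the replicate block and without control replicate 2 or CUS replicate 3, 4 or 5, and Dchs1 also without control replicate 4 or CUS replicate 1.

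By the study's methods the nuclei were run in batches that each held control and CUS mice, with a strong batch effect that the authors' model took in. The labels do not give the batch of a mouse, so the fits here hold no batch term. In the neocortical nuclei, summed over all nuclei of a mouse, no member passed an FDR of 0.2 by edgeR's quasi-likelihood test among the 18 tested, beside 0.0198% of the 5044 genes tested (1 gene). The likelihood ratio test and DESeq2 also called 0 members, beside 0.456% and 0.654% of all genes. In direction the members leaned one way. Of the 18, 17 had a log2 fold change below 0, with a median of -0.14, beside 49.1% of all genes tested and 71.2% of the genes of at least 100 kb (median -0.08). Without the filter on low counts, 23 of the 34 members with a UMI were below 0, beside 45.0% of all genes. Among the 18 the exception was Pcdh15 at 0.02. All 9 type II, 3 delta-1 and 3 delta-2 members tested were below 0. The lowest of the 8 mice was CUS replicate 1 in 17 of the 18 members, and this mouse was lowest in 28.2% of all genes and 58.8% of the long genes. Without it, 15 of the 18 were below 0. With the Striatal-like nuclei left out of the sum, all 18 were below 0 and 0 passed the FDR of 0.2. Without CUS replicate 2, which was the highest CUS mouse in 11 of the 18, all 18 were below 0 and 5 passed the FDR of 0.2 (Cdh7, Cdh8, Cdh9, Cdh10 and Cdh18), but then 15.6% of all genes did. The groups overlapped in all 18 members, while they did not in 4.78% of the genes tested.

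The smallest p belonged to Cdh8 and Cdh9, the only members at an unadjusted p under 0.05, beside 8.35% of all genes. Cdh8 measured 336, 386, 335 and 326 CPM in control and 189, 328, 266 and 287 CPM in CUS mice. The CUS replicate 2 reached the lowest control and the other 3 lay below all controls (log2 fold change -0.37, standard error 0.14, FDR 0.576 by edgeR). Cdh9 measured 164, 183, 161 and 174 CPM in control and 89.0, 179, 131 and 122 CPM in CUS mice, with the same mouse inside the control range (log2 fold change -0.39, standard error 0.16, FDR 0.576). In Striatal-like nuclei of control mice Cdh8 stood at 558 ± 48.6 CPM and Cdh9 at 217 ± 13.8. With these nuclei left out of the sum, Cdh8 measured 316, 373, 313 and 309 CPM in control and 184.5, 286, 260.5 and 278 CPM in CUS mice, and the groups no longer overlapped, which held for 2 of the 18 members (Cdh8 and Pcdh19) and 4.99% of the genes tested. Cdh9 then measured 159, 182, 157 and 169 CPM in control and 88.3, 170.1, 131 and 118 CPM in CUS mice, with CUS replicate 2 still inside the control range (log2 fold change -0.40, FDR 0.595). In bulk mPFC Cdh8 had a log2 fold change of 0.12 and Cdh9 of -0.02, both with a p above 0.05. Cdh20 had -0.19 in the summed nuclei (FDR 0.673) and Pcdh11x -0.26 (FDR 0.576). Of the 5 members higher in bulk at an unadjusted p under 0.05, Cdh11 and Cdh4 were lower in the summed nuclei. Their log2 fold changes were -0.12 (FDR 0.688) and, without the filter on low counts, -0.16 (FDR 0.754). Cdh22, Cdh24 and Pcdh1 were higher without the filter, at 0.36, 0.47 and 0.25 (FDR of 0.495, 0.696 and 0.754).

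The filter on low counts left out 17 members, among them Cdh22, which was 1 of 2 members, of the 34 with a UMI, whose groups did not overlap, as in 3.01% of all genes with a UMI. It measured 25.4, 21.9, 23.8 and 19.3 CPM in control and 30.2, 33.8, 26.3 and 28.3 CPM in CUS mice. Every CUS mouse was above every control mouse (without the filter, log2 fold change 0.36, FDR 0.495). The other, Cdh3, rested on 10 UMIs in control and 30 in CUS mice. Cdh23, the partner of Pcdh15 in the tip link, measured 15.7, 11.6, 24.5 and 21.7 CPM in control and 36.4, 34.5, 20.9 and 26.9 CPM in CUS mice. Here CUS replicate 3 lay inside the control range, and without the filter the gene passed (log2 fold change 0.67, FDR 0.00467), as did Cdh8, Cdh9 and 0.847% of all genes. In bulk mPFC the sign of Cdh23 was the opposite, with a log2 fold change of -0.11 (FDR 0.662). The choroid plexus markers summed to 154 to 182 CPM in control and 183 to 406 CPM in CUS mice. The 7 Inh_Ndnf markers summed to 418 to 452 and 463 to 547 CPM. The part of both lists in these values was not tested. Cdh5 rested on 11 UMIs in control and 29 in CUS mice, with 2.94 CPM in CUS replicate 1, the mouse of most Endothelial-like nuclei, and at most 0.463 CPM in every other mouse. Pcdh12 had 0 of 66012158 UMIs, which allows up to 0.0454 CPM, counting error only. The remaining members without a test were Cdh1, Cdh4, Cdh15, Cdh16, Cdh17, Cdh19, Cdh24, Cdh26, Pcdh1, Pcdh8, Pcdh18 and Pcdh20, at 0.019 to 39.1 CPM in control mice.

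Split by class, 26 members could be tested in at least 1 of 23 classes, 15 named and 8 numbered, which gave 386 pairs of a member and a class. The classes come from the same 8 mice, so the pairs are not independent. Of the pairs, 2 passed an FDR of 0.2 within the class (0.518%), beside 0.0932% of the 108327 pairs of any gene and class, and both were higher in CUS mice. The filter on low counts sums UMIs over both groups. In both pairs the control mice alone had UMIs below 10% of their nuclei, so the pairs passed it through the CUS mice. Their direction and share are thus not independent of the filter. At an unadjusted p under 0.05 stood 48 pairs (12.4%), 43 of them lower, beside 6.09% of all pairs and 7.23% of those of genes of at least 100 kb. Below 0 were 73.6% of the member pairs, beside 49.6% and 62.3%. Among members tested in 10 or more classes, the share below 0 was highest for Cdh7 (10 of 10 classes), Pcdh9 (22 of 23), Cdh12 (20 of 21), Cdh8 (19 of 20) and Cdh9 (15 of 16), followed by Cdh2 (19 of 22), Pcdh7 (19 of 23) and Pcdh11x (17 of 21). Cdh13 went the other way in 10 of 16 classes. Among members tested in fewer than 10 classes, those mostly above 0 were Cdh22 (4 of 5), Pcdh1 (3 of 4), Pcdh8 (3 of 3), Cdh23 (1 of 1) and Cdh24 (1 of 1). Below 0 were Cdh19 in 3 of 3 classes, Cdh4 in 5 of 9 and Pcdh20 in 2 of 4. The classes with Cdh22 above 0 include Ex_L2/3-like nuclei, where the gene passed the filter through the CUS mice.

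**Figure D4:**
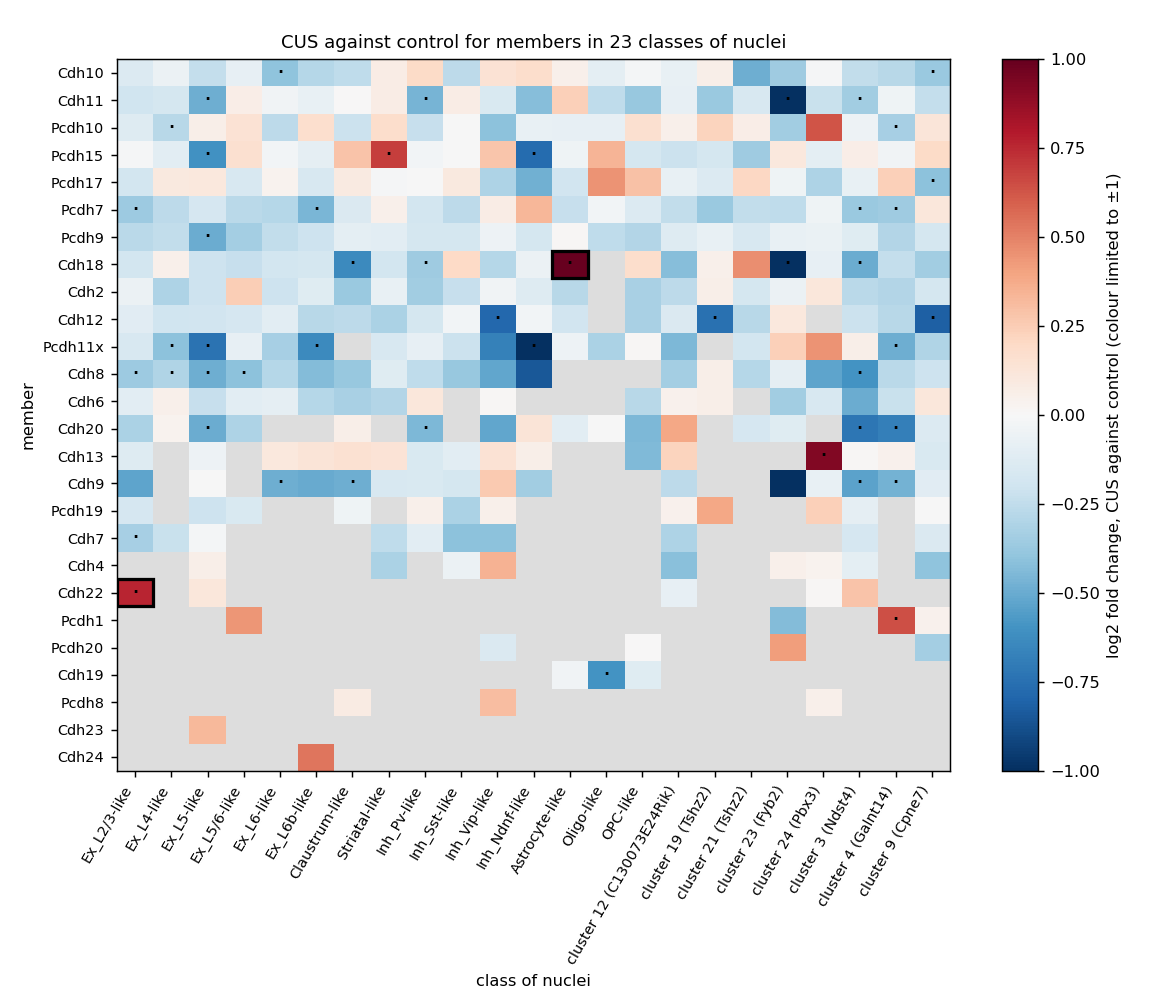
Log2 fold change of CUS against control (colour, limited to 1 in either direction) for 26 members (rows) in 23 classes of nuclei (columns), from UMIs summed per mouse. Grey cells were not tested, dots mark an unadjusted p under 0.05, and frames mark the 2 pairs that passed an FDR of 0.2. Blue, lower in CUS mice, covers 284 of the 386 coloured cells, and the frames are Cdh22 in Ex_L2/3-like and Cdh18 in Astrocyte-like nuclei.

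The first call was Cdh22 in the 3702 Ex_L2/3-like nuclei, which rose, in a class where 0.979% of the genes tested were called. It measured 26.1, 28.3, 34.8 and 30.5 CPM in control and 45.4, 74.3, 47.0 and 44.6 CPM in CUS mice. Every CUS mouse was above every control mouse, as in 5.63% of the genes tested in this class, and CUS replicate 2 was the highest (log2 fold change 0.76, standard error 0.19, FDR 0.126). In all, 166 UMIs stood behind the control and 273 behind the CUS values. The FDR rose above 0.2 without control replicate 1 (0.324), control replicate 2 (0.334), control replicate 4 (0.263), CUS replicate 1 (0.206) or CUS replicate 4 (0.207), and DESeq2 gave the gene no adjusted p. Without CUS replicate 2 the log2 fold change was 0.58 (FDR 0.0905). The summed striatal markers in these nuclei were also highest in CUS replicate 2 (1460.5 CPM), against 916 to 1018 CPM in control and 1010.3 to 1046 in the other 3 CUS mice, and their part in the result was not tested. In the same nuclei Pcdh7 (783, 1119, 870 and 771 CPM in control, 521, 744, 742 and 758 in CUS mice) and Cdh7 (164, 174, 170 and 196 CPM in control, 102, 157, 151 and 149 in CUS mice) did not overlap either, in the lower direction, with FDR of 0.370 and 0.371. Cdh22 had a log2 fold change of 0.43 in bulk mPFC (FDR 0.0731) and of 0.36 in the summed nuclei, without the filter on low counts (FDR 0.495). In Ex_L2/3-like nuclei it was 0.76 (FDR 0.126). The last 2 share mice, and Ex_L2/3-like nuclei stand here because the gene was called there.

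The second call was Cdh18 in the 1170 Astrocyte-like nuclei, the named class where it was lowest. It measured 41.9, 58.0, 33.8 and 25.1 CPM in control and 97.96, 98.4, 86.0 and 314 CPM in CUS mice, from 4, 16, 7 and 4 UMIs against 34, 11, 11 and 83. The groups did not overlap, as in 2.9% of the genes tested in this class, and CUS replicate 4 alone gave 83 of the 139 UMIs of the CUS mice (log2 fold change 1.93, standard error 0.36, FDR 0.00375, beside 0.181% of the genes called in this class). Without that mouse the gene fell under the filter on low counts, and with no filter its log2 fold change was 1.12 (FDR 0.733). In the 245 Astrocyte-like nuclei with at least 1000 genes the groups overlapped (log2 fold change 0.69, FDR 0.994). Clustering at a resolution of 1.5 set apart a cluster of 19 nuclei, 13 of them from CUS replicate 4. As a cluster it was enriched in astrocyte markers, and a share of 0.421 of its nuclei held the excitatory gene Slc17a7. The levels in the remaining 1151 nuclei were 43.3, 57.9, 30.2 and 26.6 CPM in control and 66.6, 47.8, 85.1 and 59.1 CPM in CUS mice, where the groups overlapped. With no doublet filter, where other nuclei fell into mixed clusters, the 1247 Astrocyte-like nuclei gave 56.0, 54.1, 30.8 and 36.9 CPM in control and 74.3, 73.9, 96.4 and 59.1 CPM in CUS mice, without overlap, but too few UMIs for the test. In the 1170 nuclei the 7 Ex_L6 markers summed to 335, 377, 415 and 333 CPM in control and 366, 268, 235 and 628 CPM in CUS mice, highest in CUS replicate 4. Slc17a7 measured 10.5, 21.7, 19.3 and 56.5 CPM in control and 92.2, 8.94, 62.6 and 87.01 CPM in CUS mice, highest in CUS replicate 1. The excitatory markers, Slc17a7 among them, summed to 52.4, 97.8, 101 and 107 CPM in control and 190, 107, 102 and 178 CPM in CUS mice. The part of these values in the result was not tested. Cdh18 was 1890 ± 110 CPM in Ex_L6-like nuclei of control mice.

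Over the 22 classes where Cdh18 was tested, Astrocyte-like included, it was lower in 16. In Inh_Pv-like nuclei it measured 438, 425, 443 and 403 CPM in control and 243, 345, 378 and 365 CPM in CUS mice. All CUS mice were below all controls, as in 2.8% of the genes tested there (log2 fold change -0.36, FDR 0.925). In cluster 23 (Fyb2) the log2 fold change was -1.02 (FDR 0.763), with 59 UMIs in CUS and 128 in control mice. This member was called in a cluster of the same leading gene with no doublet filter (-1.18, FDR 0.0362), and in cluster 23 without CUS replicate 4 (-1.43, FDR 0.0994).

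Cdh20 and Pcdh11x, the members with the smallest p among those lower in bulk, were followed through the classes. Cdh20 was below 0 in 13 of 17 classes. At an unadjusted p under 0.05 these were cluster 3 (Ndst4) with a log2 fold change of -0.72, cluster 4 (Galnt14) with -0.69, Ex_L5-like with -0.50 and Inh_Pv-like with -0.45. In Ex_L5-like nuclei it measured 215, 341, 232 and 239 CPM in control and 94.9, 226, 189 and 201 CPM in CUS mice, with only CUS replicate 2 inside the control range (FDR 0.680). In the glia-like classes where it was highest, the log2 fold changes were -0.11 (Astrocyte-like), -0.0022 (Oligo-like) and -0.45 (OPC-like), none at an unadjusted p under 0.05.

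Pcdh11x was below 0 in 17 of 21 classes. In Ex_L5-like nuclei it measured 176, 171, 131 and 148 CPM in control and 81.4, 66.9, 97.2 and 113 CPM in CUS mice. All CUS mice were below all controls, as in 3.83% of the genes tested there (log2 fold change -0.74, standard error 0.20, FDR 0.491). Inh_Ndnf-like nuclei also showed no overlap, as in 2.87% of the genes there, at 93.8, 165, 101 and 95.9 CPM against 49.0, 35.3, 63.3 and 73.6 CPM (log2 fold change -1.02, FDR 0.979). In OPC-like nuclei, where it was highest, the log2 fold change was 0.02. Cdh19 in Oligo-like nuclei measured 408, 436, 394 and 481 CPM in control and 234, 285, 398 and 247 CPM in CUS mice (log2 fold change -0.60, FDR 0.999), with CUS replicate 3 inside the control range.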

How the data were processed

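Per the labels' processing notes and the study's methods, reads were mapped to mm10 with STAR. The authors deposited raw counts, of uniquely mapped reads per gene in bulk and of UMIs per gene and barcode (40000 barcodes) in nuclei, exonic and intronic for UMIs. Whether intronic reads were counted in bulk is not given in the sources used here. Groups came from the sample labels, which give no batch of the nuclei, so the batch term of the authors' model could not be fitted. The members and gene lists were chosen with earlier results of these data known.

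Bulk counts (FDR 0.05, filterByExpr, TMM) and UMIs summed per mouse (FDR 0.2, genes with UMIs above 10% of the nuclei) were tested with edgeR 4.0.16 (quasi-likelihood) in R 4.3.3 over all genes. Nuclei had 600 to 5000 genes, no more than 5% of UMIs from mitochondrial genes and a doublet score up to 0.2, by steps of Scrublet rewritten for this purpose, which marked 16.71%. Clusters (Seurat 5.3.0, 2000 variable genes, 50 components, 20 neighbors, resolution 1) took a name when 3 markers were enriched 1.5-fold and either 2 stood among the 10 leading genes or the first leading gene was a marker. These cut-offs were set on the clusters without regard to condition. Classes tested had over 200 nuclei. Mixed clusters were left out. Exon lengths came from the GENCODE annotation of mm10.

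Named members were those past a threshold, the 3 of highest CPM and the 2 of smallest p per subfamily in bulk, and the member with the largest ratio to its median in each class. Others were chosen after their values were seen. Alternatives were edgeR's likelihood ratio test, DESeq2 1.42.0, a replicate block, no filter on low counts, library sizes without TMM, each mouse left out, resolutions of 0.6 and 1.5, no doublet filter and at least 1000 genes per nucleus. The tests were checked on simulated data, where in bulk the likelihood ratio test and DESeq2 made false calls above their nominal FDR and the quasi-likelihood test did not. In Ex_L2/3-like nuclei the quasi-likelihood test also exceeded it for small changes. Nothing says that replicates of a group were technical, and p-values measure the spread between mice.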

Additional observations from a re-analysis of the deposited data

Results flagged for a closer look

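In 88 groups of 4 or 5 mice, 6 values stood apart from the rest of their group by Dixon's test at 95%, which flags about 1 in 20 groups by chance. In the summed nuclei, Cdh11 was high in 1 control mouse (274.6 CPM, the others 255.5 to 257.1) and Pcdh7 low in 1 CUS mouse (495.9 CPM, the next 705.1). In bulk mPFC, Pcdh10 was high in 1 control mouse (176.3 CPM, the next 138.7) and Pcdh1 low in 1 CUS mouse (104.3 CPM, the next 115.3).

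In Astrocyte-like nuclei, Cdh18 stood at 314.0 CPM in CUS replicate 4, the next CUS mouse at 98.35. In Ex_L2/3-like nuclei, Cdh22 stood at 74.28 CPM in CUS replicate 2, the next at 47.01. Cdh18 was higher in every CUS mouse than in every control in Astrocyte-like nuclei (log2 fold change 1.926) and lower in every CUS mouse in Inh_Pv-like nuclei (-0.3583). The difference between these classes was not tested.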

How the results depend on the processing

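The count of members called in bulk was 1, beside 3.29% of all genes. It was 4 with the likelihood ratio test, with DESeq2 and with no filter on low counts, beside 7.23%, 7.68% and 2.59% of all genes. With no TMM factors it was 3, beside 815 of 18394 genes. With 1 mouse left out it was 0 to 5, beside 0.714% to 8.1% of all genes. The 5, without control replicate 3, added Pcdh1 to Cdh20, Pcdh11x, Cdh4 and Cdh22, and there 8.1% of all genes passed. Of the companion genes, 4 were called, 9 with DESeq2 and 2 to 9 with 1 mouse left out. Without control replicate 3 the count was 9, beside 8.1% of all genes. It was 2 without control replicate 2 or CUS replicate 3, 4 or 5, beside 0.714% to 1.73% of all genes. In the summed nuclei 0 members were called, 3 with no filter on low counts (beside 0.847% of all genes) and 0 to 5 with 1 mouse left out. The 5 came without CUS replicate 2, where 15.6% of all genes passed. Pairs of member and class numbered 2, and 1 with DESeq2 (which gave no adjusted p for Cdh22 in Ex_L2/3-like nuclei), 5 with no filter, 1 at resolution 1.5, 1 at no fewer than 1000 genes per nucleus and 1 to 16 with 1 mouse left out (16 without CUS replicate 2). The share of all pairs called in these alternatives was not counted, so these counts cannot be read as particular to the members. No direction reversed among called values. Members below 0 in all nuclei, an alternative set chosen after seeing the data, were 15 to 18 of the 18 tested, 18 of 19 with at least 1000 genes per nucleus and 23 of 34 with no filter on low counts. Leaving out Striatal-like nuclei, also chosen after seeing the data, gave 18 of 18 below 0 and 0 called. With no doublet filter Cdh18 in Astrocyte-like nuclei had too few UMIs to be tested, and Cdh18 in a cluster led by Fyb2 was called.

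No clear pairing of the mice by replicate number was seen, and this check cannot detect batches that hold several mice of a group. Deviations of mice with the same number correlated at 0.0335 to 0.199 in bulk and at -0.471 to 0.358 in nuclei, and 2 of 4 and 1 of 4 controls correlated best with their own number. With a replicate block, 1 member was called in bulk (Cdh20, FDR 0.0371), 2 companion genes, 0 members in the summed nuclei and 4 pairs of member and class. In the same fits 238 of 18394 genes passed in bulk and 1 of 5044 in the summed nuclei.

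Limits are the depth of the nuclei, where 17 members had too few UMIs to test in the sum, small classes, and the unknown batch of each mouse, which cannot be told apart from the mice. With no doublet filter or at least 1000 genes per nucleus, some classes had too few nuclei or no name, so fewer pairs were tested.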
